A study of Mus musculus with 16 samples.

Results

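The genes described here are 8 members of the chemokine system, namely the ligands Ccl3, Ccl4, Ccl5, Ccl6 and Ccl9 and the receptors Cx3cr1, Ccr1 and Ccr2. They were selected by their symbols, and 9 probes of the bead array carry them, of 25676 probes with a usable symbol for 17836 genes. The selection was made with the values of these arrays in view: Cx3cr1 and Ccl9 were chosen because they differ between the genotypes. Their genotype differences are therefore given as a description, with no test. After a filter on detection, 5 members were left, of 9680 genes tested in all: Cx3cr1, Ccl9, Ccl4, Ccl3 and Ccl5.

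The arrays, 16 in number, measured RNA from mouse cells enriched for haematopoietic stem cells (HSC), the self-renewing source of every blood lineage in the marrow. Wild-type (WT) cells carried the CD45.1 form of the leukocyte surface marker, and cells with the Jak2VF knock-in carried CD45.2. Jak2VF is the activated form of the kinase Jak2 found in polycythemia vera, a disease of excess red cell production. Mice received vehicle or interferon alpha, at 10000 units a day for 4 weeks, which gives the groups WT vehicle, WT interferon, Jak2VF vehicle and Jak2VF interferon with 4 arrays each. The strain label was C57B16 for every array. Age, sex, the number of animals, and whether cells of both genotypes came from the same animals are not stated in the labels. The p-values therefore reflect sample-to-sample spread in this set alone, and that spread could be technical. Since every WT sample was CD45.1 and every Jak2VF sample CD45.2, the mutation and the chromosomal segment that carries the CD45 marker cannot be told apart. In RNA from a cell population, fewer cells of a type and less RNA per cell cannot be told apart either.

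Chemokines are small secreted proteins that direct the movement of blood cells by binding membrane receptors that signal through inhibitory G proteins. Ccl3, Ccl4 and Ccl5 are inflammatory ligands made by activated myeloid cells and lymphocytes. Ccl3 and Ccl5 bind Ccr1. Ccl6 and Ccl9 are rodent ligands of Ccr1 made by myeloid cells, and Ccl3 is known in mice as an inhibitor of the proliferation of primitive marrow cells. Ccr2, the receptor of Ccl2, brings monocytes out of the marrow, and Cx3cr1, the receptor of fractalkine (Cx3cl1), marks monocytes, macrophages and their progenitors.

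All 5 ligands lie in a cluster on mouse chromosome 11, and the 3 receptors lie on chromosome 9. The positions are those of the RefSeq annotation of GRCm38.p6, since the array files name no build. Ccl5 spans chr11:83525778-83530518, Ccl9 chr11:83572917-83578636 and Ccl6 chr11:83587886-83593087. Ccl3 spans chr11:83647843-83649378, and the model of Ccl4, chr11:83648624-83664683, overlaps it by 755 bases. Cx3cr1 spans chr9:120048683-120068296, Ccr1 chr9:123962126-123968692 and Ccr2 chr9:124101918-124109140. Which exon or untranslated region each probe reads was not analysed here.

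Promoter sequence, from 250 bases before to 50 bases after the start of the gene, was found in RefSeq for 6 of the 8 members. Those of 3 genes are shown because they belong to the receptor and the ligand that differ between the genotypes, and to Ccl6, which lies 9249 bases from Ccl9 and was read on none of the arrays. All are on the minus strand and are written 5′ to 3′. Capitals mark runs of 8 or more bases shared by the local alignment of the Ccl9 and Ccl6 promoters.
Cx3cr1, chr9:120068247-120068546: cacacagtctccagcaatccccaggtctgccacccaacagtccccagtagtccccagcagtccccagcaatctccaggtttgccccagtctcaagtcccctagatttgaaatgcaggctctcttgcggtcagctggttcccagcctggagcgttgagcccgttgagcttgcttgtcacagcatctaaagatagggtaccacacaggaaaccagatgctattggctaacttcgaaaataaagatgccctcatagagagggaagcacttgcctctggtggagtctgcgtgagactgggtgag
Ccl9, chr11:83578587-83578886: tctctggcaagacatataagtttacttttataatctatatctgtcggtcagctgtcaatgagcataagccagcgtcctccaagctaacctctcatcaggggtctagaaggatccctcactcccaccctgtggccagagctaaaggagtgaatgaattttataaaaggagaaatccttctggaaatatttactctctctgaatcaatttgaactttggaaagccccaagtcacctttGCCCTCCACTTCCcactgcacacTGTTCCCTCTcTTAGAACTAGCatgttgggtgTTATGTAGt
Ccl6, chr11:83593038-83593337: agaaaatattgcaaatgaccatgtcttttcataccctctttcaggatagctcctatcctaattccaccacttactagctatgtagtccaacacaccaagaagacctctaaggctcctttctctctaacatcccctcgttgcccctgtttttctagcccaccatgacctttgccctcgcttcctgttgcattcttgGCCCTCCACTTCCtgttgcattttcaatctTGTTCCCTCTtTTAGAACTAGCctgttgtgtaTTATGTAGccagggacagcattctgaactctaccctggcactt

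The Ccl9 and Ccl6 promoters had 172 identical bases in 306 aligned columns (56.2%), with a longest shared run of 13 bases and an alignment score of 158. Among all 15 pairs of these 6 promoters this was the highest score. The other pairs scored up to 136, and their longest shared runs were 7 to 10 bases. Each of the shared runs lies near the start of the gene, and 42 bases of each promoter are in capitals. The Ccl9 probe was detected on 16 of 16 arrays and the Ccl6 probe on 0 of 16, and levels of different probes are not compared. The windows were also searched on both strands for 3 short motifs of factors active in interferon-treated or myeloid cells. The core of the interferon-stimulated response element, GAAANNGAA, occurs in 8.56% of 32851 RefSeq mouse promoters. Among the members it was found in Ccl3 and Ccr2, once each and on the opposite strand. The core of the STAT element, TTCNNNGAA (8.3% of promoters), and that of the PU.1 element, GAGGAAGT (3.2%), were found in none of the 6 windows. These matches describe letters, not binding.

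The mean intensity of an array before normalization ranged from 162 to 414 in WT vehicle, 294 to 1009 in WT interferon, 391 to 616 in Jak2VF vehicle and 602 to 1130 in Jak2VF interferon. Brightness thus moved with the groups. The 3 dimmest arrays were WT vehicle replicates 3 and 1 and WT interferon replicate 2, and between 8209 and 13055 probes were detected on an array (detection p under 0.05). Quantile normalization gives every array the same distribution, so a probe whose intensity stays level on a brighter array falls in the normalized scale. For this reason the intensity before normalization is given beside the normalized log2 level. Of the stem and progenitor markers, Ly6a, Cd34, Meis1 and Gata2 were detected on 16 of 16 arrays and Slamf1 and Mecom on 15, but Procr on 6, Hlf on 5 and Fgd5 on 1. Genes of other lineages were present too. The lymphocyte genes Lck, Nkg7 and Cd79b and the neutrophil genes Mpo, Elane and S100a8 were detected on 16 of 16 arrays, whereas the T cell genes Cd3d, Cd3e, Cd3g and Cd8a were detected on 0.

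**Figure D1:**
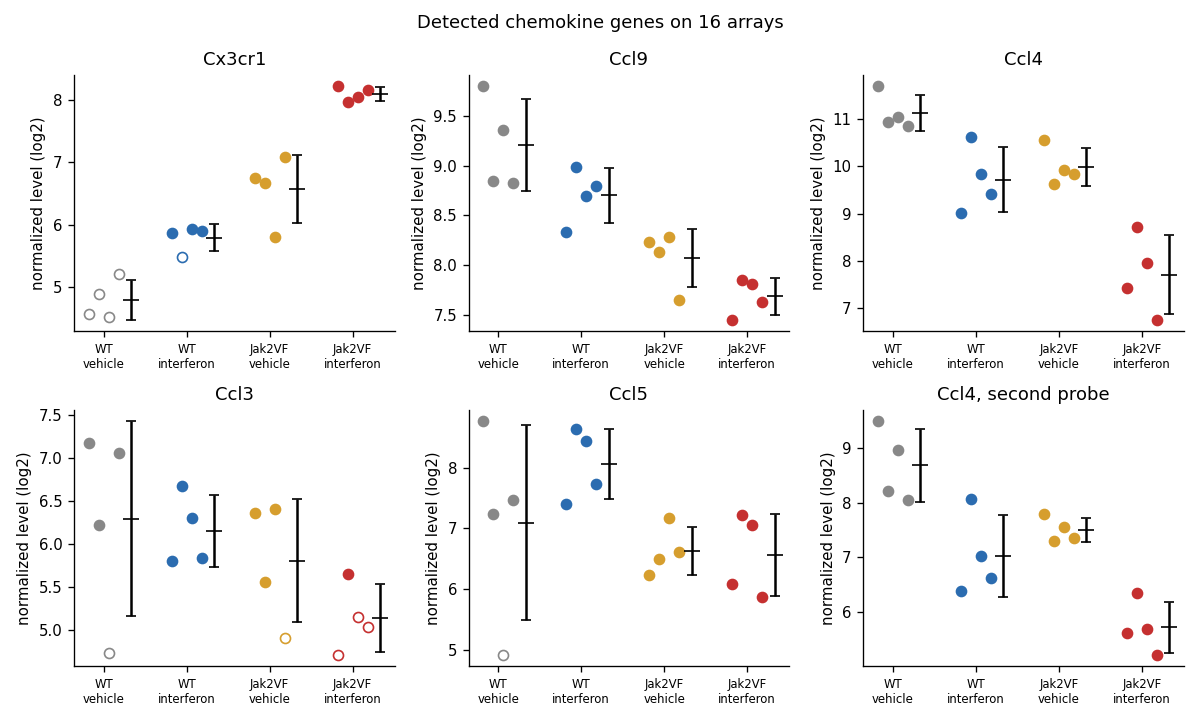
Normalized level (log2) of the 5 members that passed the detection filter, with both probes of Ccl4, on each array of the 4 groups; filled points are detected (detection p under 0.05), open points are not, and bars give the mean ± SD of 4 arrays. Cx3cr1 runs from 4.80 ± 0.32 in WT vehicle to 8.10 ± 0.11 in Jak2VF interferon, and Ccl4 runs the other way, from 11.13 ± 0.38 to 7.71 ± 0.83; each panel has its own axis, which does not start at 0.

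Cx3cr1, the fractalkine receptor, was read by 1 probe (ILMN_2625125). Its intensity was 90.2, 106, 84.9 and 109 on the WT vehicle arrays, none of which was above background. With interferon the WT arrays read 209, 110, 158 and 181, and 3 of 4 were detected. In Jak2VF vehicle the intensities were 179, 190, 118 and 172, and all 4 arrays were detected. The Jak2VF interferon arrays were the brightest for this probe, at 341, 487, 706 and 582, and no array of any other group reached them. The normalized levels were 4.80 ± 0.32 in WT vehicle, 5.80 ± 0.21 in WT interferon, 6.58 ± 0.54 in Jak2VF vehicle and 8.10 ± 0.11 in Jak2VF interferon (log2, mean ± SD, n = 4 each). WT interferon, whose highest array read 5.93, overlapped with Jak2VF vehicle, whose lowest array read 5.81, and the other neighbouring groups in this order did not overlap.

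Interferon alpha raised Cx3cr1 in Jak2VF cells 2.86-fold, a log2 change of 1.52 (SE 0.23, 95% interval 1.03 to 2.01, limma, adjusted p = 0.000801, n = 4 against 4). Before normalization the mean log2 intensity rose by 1.66, but the Jak2VF interferon arrays were also brighter overall (602 to 1130 against 391 to 616). The normalized rise was present on either slide, at 1.38 and 1.65. With array brightness as a covariate it was 1.28 (adjusted p = 0.00535). In WT cells the fitted difference of Cx3cr1 passed the threshold (limma, adjusted p = 0.0384, n = 4 against 4). No fold is given for it, since the 4 vehicle arrays hold background only and the bound on the fold is under 1. The p was 0.647 with the brightness covariate and 0.0948 without the 3 dimmest arrays, and the call was lost in 10 of 16 fits that left out 1 array. Centred on the median of detected probes in place of quantile normalization, its difference in WT turned to -0.26 (adjusted p = 0.513). The change of Cx3cr1 with interferon in Jak2VF cells exceeded that in WT cells by 0.52 (SE 0.32, 95% interval -0.17 to 1.21, limma, adjusted p = 0.491). This difference was not called, and it rests on the WT vehicle background.

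Between the genotypes, for which Cx3cr1 was chosen, its quantile-normalized level in Jak2VF vehicle was at least 1.59-fold that in WT vehicle. This is a bound, because the WT vehicle arrays gave no level above background. In its denominator each WT vehicle array stands at the dimmest level detected on it, or at its own Cx3cr1 level if that is greater. The bound, 0.67 in log2, holds for this normalization only. Centred on the median of detected probes the log2 difference was 0.47, on that of all probes 1.41, and with the brightness covariate 1.55. Before normalization it was 0.74 in mean log2 intensity, with array means of 391 to 616 in Jak2VF vehicle and 162 to 414 in WT vehicle. With interferon the Jak2VF level of Cx3cr1 was 4.94-fold the WT level, a log2 difference of 2.30 (SE 0.23), and it was 2.42 and 2.19 on slides 1 and 2. Before normalization the Jak2VF interferon arrays were also the higher ones, from 341 to 706 against 110 to 209.

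Values of cell type markers moved with Cx3cr1. The summed level of 10 erythroid genes that passed, of 12 listed, was 4858 to 5518 in WT vehicle and 5670 to 6759 in WT interferon. It was 6525 to 7086 in Jak2VF vehicle and 11339 to 16642 in Jak2VF interferon, in the same order of groups as Cx3cr1. In Jak2VF cells 7 of these 10 were called higher with interferon and 0 lower, beside 16% of all genes called. The sum of the monocyte and macrophage genes, 14 passing of 21 listed, ran in the opposite direction. It was 12208 to 16835 in WT vehicle and 3678 to 6094 in Jak2VF interferon, with Cybb detected on 0 of 16 arrays. Of these 14 genes, 2 were called lower and 0 higher with interferon in Jak2VF cells, a share near the 16% of all genes called. The stem and progenitor genes, 14 passing of 17, summed to 20924 to 27224 in WT vehicle and 8566 to 15299 in Jak2VF interferon. The part of cell composition in the change of Cx3cr1 was not tested.

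**Figure D2:**
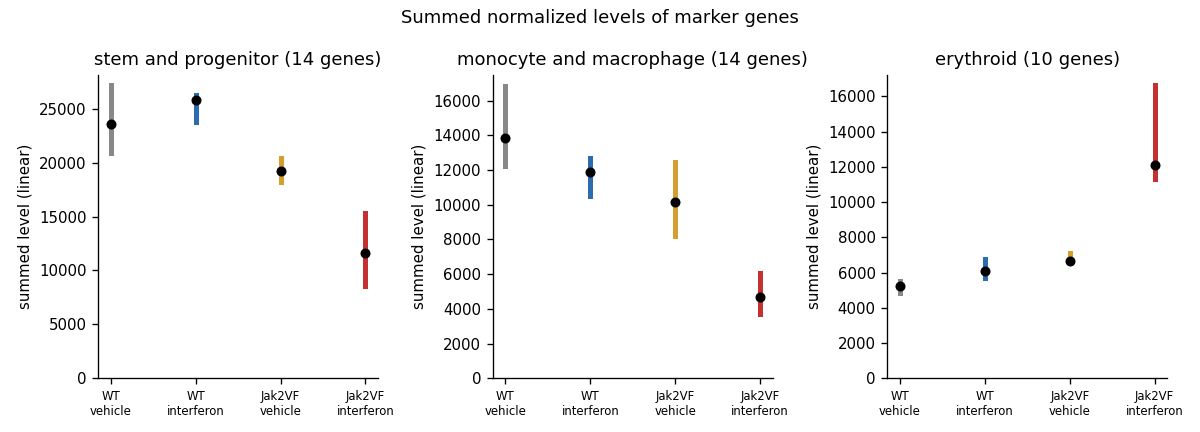
Summed normalized level, on a linear axis from 0, of the stem and progenitor, monocyte and macrophage, and erythroid marker genes that passed the detection filter; vertical lines give the range over the 4 arrays of a group and black points the median. The Jak2VF interferon arrays hold the lowest sums of the first 2 lists, 8566 to 15299 and 3678 to 6094, and the highest of the third, 11339 to 16642.

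Ccl9, a ligand of Ccr1, was read by 1 probe (ILMN_2776603) and detected on 16 of 16 arrays. Its normalized levels were 9.80, 8.85, 9.37 and 8.82 in WT vehicle and 8.33, 8.99, 8.70 and 8.79 in WT interferon. In Jak2VF vehicle they were 8.23, 8.13, 8.28 and 7.65, and in Jak2VF interferon 7.45, 7.85, 7.81 and 7.62. Every Jak2VF array lay below every WT array, while vehicle and interferon overlapped within each genotype. The log2 difference of Jak2VF from WT was -1.14 (SE 0.22) with vehicle, with values of -1.14 and -1.13 on slides 1 and 2. With interferon it was -1.02 (SE 0.22), with -1.01 and -1.03 on the slides.

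Before normalization the mean log2 intensity of Ccl9 was 0.15 higher in Jak2VF vehicle than in WT vehicle, and 0.41 lower in Jak2VF interferon than in WT interferon. Centred on the median of all probes, a scaling that moves the median of all genes by 0.85 in the vehicle comparison, the difference with vehicle was 0.04. It was -0.90 when centred on the median of detected probes, -0.93 with the brightness covariate, and -0.93 both in the authors' values and without background correction. Interferon moved Ccl9 by -0.51 (SE 0.22) in WT cells (limma, adjusted p = 0.134, n = 4 against 4) and by -0.39 (SE 0.22) in Jak2VF cells (adjusted p = 0.261), neither of which passed the threshold. The difference between these changes was 0.12 (95% interval -0.55 to 0.78, adjusted p = 0.883).

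Ccl4, also known as macrophage inflammatory protein 1 beta, was read by 2 probes, both detected on 16 of 16 arrays. The brighter probe (ILMN_1223257) had normalized levels of 11.69, 10.93, 11.05 and 10.86 in WT vehicle and 9.01, 10.61, 9.84 and 9.40 in WT interferon. Its levels in Jak2VF vehicle were 10.56, 9.63, 9.93 and 9.83, and those in Jak2VF interferon 7.42, 8.72, 7.94 and 6.75. The Jak2VF interferon arrays were the lowest 4 of the 16, and the WT vehicle arrays the highest 4. WT interferon and Jak2VF vehicle overlapped.

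Interferon lowered Ccl4 in Jak2VF cells to 0.206 of its vehicle level, a log2 change of -2.28 (SE 0.40, 95% interval -3.12 to -1.44, limma, adjusted p = 0.00178, n = 4 against 4). The fall was -2.03 and -2.53 on slides 1 and 2 and -1.91 with the brightness covariate (adjusted p = 0.0125). It was also seen before normalization, at -0.95 in mean log2 intensity, although these arrays were brighter overall. Centred on the median of all probes, the change of Ccl4 was -1.60 and not called (adjusted p = 0.124). In WT cells the change of Ccl4 was -1.42 (SE 0.40, adjusted p = 0.0600), not called although the groups did not overlap, and before normalization its mean log2 intensity was 0.38 higher with interferon. The call for Ccl4 in WT cells appeared in some of the other settings, among them no background correction (adjusted p = 0.0315).

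The second Ccl4 probe (ILMN_1224472) had levels of 8.68 ± 0.67 in WT vehicle, 7.03 ± 0.75 in WT interferon, 7.50 ± 0.22 in Jak2VF vehicle and 5.72 ± 0.47 in Jak2VF interferon (n = 4 each). Tested as a feature of its own among 13364 probes, it was called lower with interferon in both genotypes. The change was -1.65 (SE 0.37, limma, adjusted p = 0.0351) in WT cells and -1.78 (SE 0.37, adjusted p = 0.00604) in Jak2VF cells. Before normalization the mean intensity of this probe was higher with interferon in WT cells, 232 against 208, and lower in Jak2VF cells, 170 against 220. Both probes were thus called in Jak2VF cells, and only the second in WT cells. The change of Ccl4 in Jak2VF cells minus that in WT cells was -0.86 (SE 0.56, 95% interval -2.06 to 0.33, adjusted p = 0.507) for the brighter probe and -0.12 (adjusted p = 0.937) for the second, neither called. In Jak2VF interferon the second probe was near the detection limit, with intensities of 128 to 219 and a detection p up to 0.0476. Its fall there, and so the value of -0.12, is limited by signal over background. Between the genotypes, as a description, Ccl4 of the brighter probe differed by -1.14 (SE 0.40) with vehicle and -2.01 (SE 0.40) with interferon. Before normalization the vehicle difference was 0.13, in the other direction. Like the mean levels of Ccl4 and Ccl9, the medians of the marker sums that follow were highest in WT vehicle and lowest in Jak2VF interferon. The monocyte and macrophage sum given above was lowest in Jak2VF interferon. For T and NK cells 5 genes passed, of 16 listed. Their sum was 11105 to 13959 in WT vehicle and 4382 to 7416 in Jak2VF interferon. Of these 5, 1 was called lower and 0 higher with interferon in Jak2VF cells, near the 16% of all genes called. Cd3d, Cd3e, Cd3g, Cd8a, Gzma, Gzmb and Ncr1 were detected on 0 arrays. For eosinophils, basophils and mast cells 12 genes passed, of 16. Their median sum was 15959 in WT vehicle, 3897 in WT interferon, 11940 in Jak2VF vehicle and 2584 in Jak2VF interferon. This sum was lower in WT interferon than in Jak2VF vehicle, the reverse of Ccl9. Over 13 neutrophil genes the median sum was 35178 in WT vehicle, 21429 in WT interferon, 19707 in Jak2VF vehicle and 9738 in Jak2VF interferon. With vehicle the neutrophil sums spread widely and overlapped, from 24621 to 84566 in WT and from 14727 to 65401 in Jak2VF. The part of these cells in the results was not tested.

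**Figure D3:**
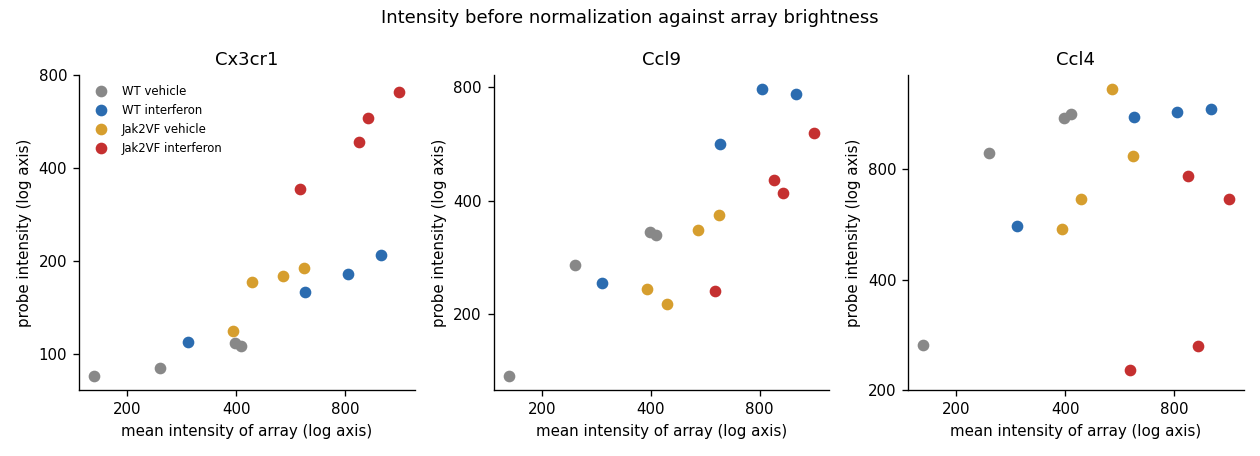
Intensity of the Cx3cr1, Ccl9 and brighter Ccl4 probes before normalization (vertical, log axis) against the mean intensity of the array (horizontal, log axis), 1 point for each of the 16 arrays, coloured by group. On bright arrays the Jak2VF interferon points of Cx3cr1 (341 to 706) lie above the WT interferon points (110 to 209), whereas for Ccl4 the Jak2VF interferon points (228 to 766) lie among or below those of dimmer arrays.

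Ccl3, or macrophage inflammatory protein 1 alpha, was read by 1 probe (ILMN_1253919) near the detection limit. It was detected on 3 of 4 WT vehicle arrays, 4 of 4 WT interferon arrays, 3 of 4 Jak2VF vehicle arrays and 1 of 4 Jak2VF interferon arrays. Its normalized levels were 6.29 ± 1.13, 6.15 ± 0.41, 5.80 ± 0.72 and 5.13 ± 0.39 in that order of groups. The lowest WT vehicle value, 4.72, came from replicate 3, the dimmest array. Interferon changed Ccl3 by -0.15 (SE 0.47, limma, adjusted p = 0.849) in WT cells and -0.67 (SE 0.47, adjusted p = 0.379) in Jak2VF cells, neither called. Under interferon the Jak2VF arrays of Ccl3 all lay below the WT arrays, with a difference of -1.02 (SE 0.47) and intensities of 106 to 165 against 124 to 202, ranges that overlap.

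Ccl5, or RANTES, which T cells and interferon-treated cells make, was read by 1 probe (ILMN_1231814). Its levels were 8.77, 7.24, 4.92 and 7.46 in WT vehicle and 7.41, 8.64, 8.44 and 7.74 in WT interferon. Jak2VF vehicle arrays read 6.23, 6.50, 7.17 and 6.62, and Jak2VF interferon arrays 6.09, 7.23, 7.05 and 5.87. The widest spread was in WT vehicle, where the dimmest array was not detected, and vehicle and interferon overlapped in each genotype. Interferon changed Ccl5 by 0.96 (SE 0.60, limma, adjusted p = 0.272) in WT cells, 0.02 on slide 1 and 1.90 on slide 2. In Jak2VF cells the change of Ccl5 was -0.07 (SE 0.60, 95% interval -1.36 to 1.22, adjusted p = 0.956). Before normalization the intensity in WT cells was 94.5 to 182 with vehicle and 211 to 489 with interferon, 2 ranges that do not overlap. As a group the WT interferon arrays were also brighter, with array means of 294 to 1009 against 162 to 414 in WT vehicle. The raw separation of Ccl5 therefore cannot be told apart from array brightness. On the normalized scale the Jak2VF arrays of Ccl5 lay below the WT arrays under interferon, with no overlap. They were 2.82-fold lower in the mean (SE 0.60 on the log2 scale). Before normalization the difference in mean log2 intensity was -0.67, with intensities of 141 to 389 against 211 to 489, ranges that overlap.

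The remaining members were not well above background on any array. Ccl6 (ILMN_2694179) had intensities of 82.2 to 133 and a smallest detection p of 0.115 over 16 arrays. Ccr1 (ILMN_2594763), the receptor of Ccl3, Ccl5, Ccl6 and Ccl9, had intensities of 80.3 to 109 and a smallest detection p of 0.348. Ccr2 (ILMN_1226563) had 84.6 to 119 and 0.340. Ccr1 was thus not detected on arrays that read several of its ligands. Cx3cl1, the ligand of Cx3cr1, was detected on 3 of 16 arrays. A probe at background gives no statement that its transcript is absent.

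Counted by comparison, interferon in WT cells gave a call to 1 member of the 5 that passed, the background-limited Cx3cr1, where 2.27% of all genes tested were called. Interferon in Jak2VF cells gave calls to 2 members, Cx3cr1 upwards and Ccl4 downwards, beside 16% of all genes. In the comparison of Jak2VF with WT on vehicle 2 members were called (0.424% of all genes), and on interferon 3 members (17.7% of all genes). Those 2 genotype contrasts are the ones the members were chosen on, so nothing is read from these 2 counts. For the difference of the interferon changes between genotypes 0 members were called (limma), against 0.114% of all genes, and 0 had an unadjusted p under 0.05. The median log2 change of the 5 was -0.15 with interferon in WT cells and -0.39 in Jak2VF cells, and the median of all genes was 0.05 and -0.000416.

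**Figure D4:**
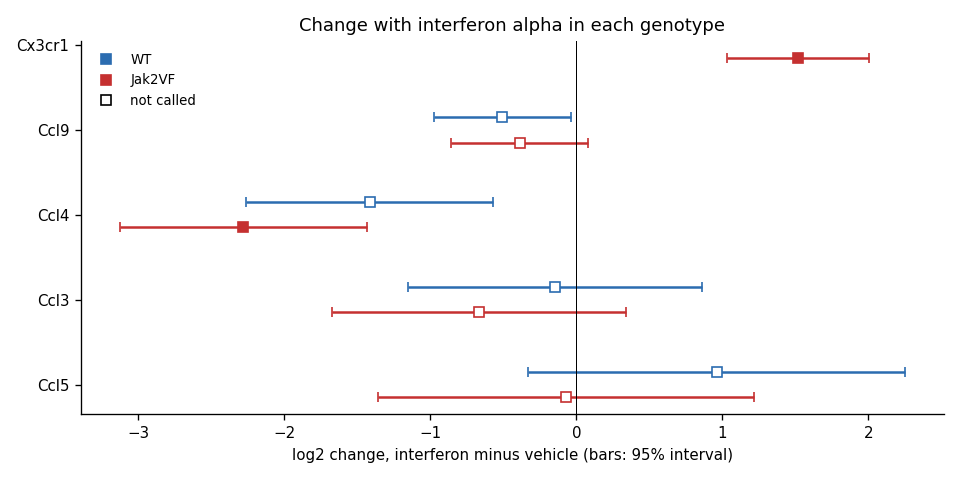
Log2 change with interferon alpha (interferon minus vehicle, 4 arrays against 4) in WT and Jak2VF cells with 95% intervals; filled squares passed an adjusted p under 0.05 in limma, and open squares did not. In Jak2VF cells Cx3cr1 stands at 1.52 and Ccl4 at -2.28; Cx3cr1 in WT cells is left out because its vehicle arrays hold background only.

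Across the 16 arrays the level of Cx3cr1 ran against those of Ccl9 (Pearson r = -0.924) and Ccl4 (-0.879), while Ccl9 ran with Ccl4 (0.824) and Ccl3 with Ccl5 (0.754). These correlations are descriptions of arrays that share slides and brightness. The normalized level of Cx3cr1 itself correlated with log2 array brightness at 0.728, that of Ccl9 at -0.694 and that of Ccl4 at -0.774. The genes with the pattern most like Cx3cr1 were Slc38a5, a glutamine transporter (0.975), Ank1, the ankyrin of the red cell membrane (0.968), and Mns1 (0.967). Nearest to Ccl9 were Ccpg1 (0.927), Fcer1g, the common gamma chain of Fc receptors (0.926), and the chemokine receptor Cxcr4 (0.922). Ccl4 was nearest to Gimap6 (0.976), Eva1b (0.975) and the phosphatase gene Dusp2 (0.974). Ccl3 was nearest to Ctss, the protease cathepsin S (0.920), and Ccl5 to the interferon-induced gene Ifit3 (0.932).

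The rest of the chemokine family was mostly not detected on these arrays. Of 34 other ligands on the array, 20 were detected on no array and 9 passed the filter, and of 21 other receptors 9 were detected on none and 6 passed. The monocyte attractant Ccl2, the neutrophil attractants Cxcl1 and Cxcl2, and the receptors Ccr3, Ccr4 and Cxcr3 were all detected on 0 of 16 arrays. Among the ligands that passed were the platelet granule chemokines Pf4 and Ppbp and the interferon-inducible Cxcl9 and Cxcl10, detected on 8 and 10 of 16 arrays.

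Among the 9 other ligands, 3 were called lower and 0 higher with interferon in Jak2VF cells, beside 16% of all genes called. A positive change, not called, was seen in 4 of the 9, among them Ppbp at 1.43 (SE 0.61, limma, adjusted p = 0.130). Ccl19, a ligand of Ccr7, had a level of 6.29 ± 0.24 with vehicle and 5.03 ± 0.21 with interferon (n = 4 each), a change of -1.26 (SE 0.30, limma, adjusted p = 0.0105). The vehicle and interferon arrays of Ccl19 did not overlap, but Ccl19 was detected on 1 of the 4 Jak2VF interferon arrays, so the low level rests mostly on background. Pf4, the platelet factor stored in megakaryocyte granules, ranged from 13.83 to 14.09 with vehicle and from 12.15 to 13.75 with interferon, and fell by 0.98 (SE 0.27, adjusted p = 0.0247), with -0.45 on slide 1 and -1.51 on slide 2. Ccl27a, a ligand of Ccr10 with near-identical copies in the mouse genome that make its identity uncertain, fell by 0.93 (SE 0.24, adjusted p = 0.0162). Before normalization these changes were small, at -0.14 for Ccl19, 0.003 for Pf4 and 0.16 for Ccl27a. With the brightness covariate the adjusted p was 0.0547 for Ccl19, 0.0976 for Pf4 and 0.0806 for Ccl27a, and centred on the median of all probes none of the 3 was called. In WT cells 1 of the 9 was called: Ccl19 changed by -1.31 (SE 0.30, adjusted p = 0.0361), a call lost with the brightness covariate (adjusted p = 0.684). The median of the 9 ligands was -0.06 in WT and -0.04 in Jak2VF cells.

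Of the 6 other receptors, 1 was called lower and 0 higher with interferon in Jak2VF cells, a share near the 16% of all genes called. Ackr1, the atypical receptor of red cell precursors that binds chemokines without signalling, went from 7.79 ± 1.03 to 6.04 ± 0.74, a change of -1.75 (SE 0.50, limma, adjusted p = 0.0288). The groups of Ackr1 overlapped, and the call was lost in 5 of 16 fits that left out 1 array and with the brightness covariate, where its change was -1.85 (adjusted p = 0.0618). In WT cells no receptor was called, and the smallest p belonged to Cxcr5 at -0.87 (SE 0.51, adjusted p = 0.244). The median of the 6 receptors was -0.12 in WT and -0.59 in Jak2VF cells.

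Cxcr4, the receptor of Cxcl12 that keeps stem cells in the marrow, was lower in Jak2VF cells. Its levels were 10.52 ± 0.22 in WT vehicle, 10.25 ± 0.14 in WT interferon, 9.05 ± 0.40 in Jak2VF vehicle and 8.57 ± 0.27 in Jak2VF interferon (n = 4 each). The genotypes did not overlap, and the difference of Cxcr4 was -1.47 with vehicle (SE 0.19, limma, adjusted p = 0.00242) and -1.68 with interferon (SE 0.19, adjusted p = 0.000104). Before normalization the Cxcr4 differences were -0.09 and -0.98, and centred on the median of all probes they were -0.28 and -1.19, neither called. Centred on the median of detected probes they were -1.22 (adjusted p = 0.0137) and -1.53 (adjusted p = 0.000237), and with the brightness covariate -1.42 (adjusted p = 0.0218) and -1.65 (adjusted p = 0.000189). Interferon itself changed Cxcr4 by -0.27 (adjusted p = 0.326) in WT and -0.49 (adjusted p = 0.102) in Jak2VF cells.

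Under interferon 2 of the 9 other ligands and 2 of the 6 other receptors were called lower in Jak2VF than in WT cells. None was called higher, beside 17.7% of all genes called. Pf4 differed by -1.67 (SE 0.27, limma, adjusted p = 0.000843) and Ccl19, detected on 1 of 4 Jak2VF arrays there, by -0.95 (SE 0.30, adjusted p = 0.0367). Among the receptors Cxcr4 was joined by Cxcr1, a receptor of neutrophil attractants, at -1.10 (SE 0.35, adjusted p = 0.0394). Centred on the median of all probes none of these 4 was called, with differences of -1.13 for Pf4, -0.97 for Ccl19, -1.19 for Cxcr4 and -1.11 for Cxcr1. Centred on the median of detected probes all 4 were called (limma, adjusted p = 0.0107, 0.0147, 0.000237 and 0.000397). The calls of Ccl19 and Cxcr1 were lost in 7 and 10 of the 16 fits that left out 1 array. With vehicle no other ligand was called, and the smallest p was that of Ppbp at -2.56 (SE 0.61, adjusted p = 0.0884), which passed with slide as a block (adjusted p = 0.0444). For the difference of the interferon changes no gene of either list was called (limma), with 2 ligands and 1 receptor at an unadjusted p under 0.05. The smallest p-values there were those of Pf4 at -1.11 (adjusted p = 0.212) and Cxcr1 at -1.07 (adjusted p = 0.345).

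The megakaryocyte list holds Pf4 and Ppbp themselves, so it was summed over its other 8 genes, among them Itga2b, Gp9 and Vwf. Their summed level was 11865 to 19633 in WT vehicle and 15574 to 19744 in WT interferon. It was 9479 to 13321 in Jak2VF vehicle, which overlaps WT vehicle, and 4971 to 7870 in Jak2VF interferon. With interferon in Jak2VF cells 6 of the 8 were called lower and 0 higher, beside 16% of all genes called. The part of these genes in the Pf4 result was not tested.

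Downstream of the receptors, 23 of 33 listed genes for G protein signalling and its control were tested. With interferon in Jak2VF cells 8 were called lower and 0 higher, with a median of -0.35, where 16% of all genes were called. In the same comparison 5 of 14 stem and progenitor genes were called lower and 0 higher. Of 12 eosinophil, basophil and mast cell genes, 7 were called lower and 1 higher. The part of these marker genes was not tested. Rgs1, which shortens G protein signals, fell by 1.67 (SE 0.27, limma, adjusted p = 0.00106), and Plcb2, a phospholipase that receptor-released G protein subunits activate, fell by 1.02 (SE 0.19, adjusted p = 0.00266). Gng2, a G protein gamma subunit, fell by 0.83 (SE 0.26, adjusted p = 0.0407), a call lost with the brightness covariate (adjusted p = 0.206). Before normalization the change was -0.53 for Rgs1 but 0.12 for Plcb2 and 0.21 for Gng2. Under interferon, where 17.7% of all genes were called, 8 were called lower in Jak2VF than in WT cells and 0 higher. Among them were Rgs1 at -1.58 (limma, adjusted p = 0.00106), Rgs18 at -1.23 (adjusted p = 0.00805) and Plcb2 at -1.11 (adjusted p = 0.00119). In the interferon comparison of WT cells and the genotype comparison with vehicle 0 of the 23 were called (limma), with 3 at an unadjusted p under 0.05 in each. For the difference of the interferon changes 0 were called, with 8 at an unadjusted p under 0.05.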

How the data were processed

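RNA of HSC-enriched cells was amplified with a TotalPrep kit after PicoPure extraction, labelled with biotin and read on Illumina mouse bead arrays, per the labels' protocols. The deposited table holds, for each of 25697 probes and 16 arrays, the intensity before normalization and a detection p-value, per the file headers. The authors' normalized intensity values served as an alternative only; how they were made is not stated in the labels or headers. No column was left unmapped.

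Background was corrected with normexp from the detection p-values, with offset 16, and arrays were quantile normalized and log2 transformed (neqc, limma 3.58.1, R 4.3.3). Probes detected (detection p under 0.05) on at least 4 arrays were kept (13364), and each gene was represented by its brightest passing probe. Older symbols were updated through RefSeq for 7082 probes, 1046 kept the file's name, and 21 probes whose symbol had become a date were left out. The fit had 1 mean per group over all 16 arrays (12 residual and 2.73 prior degrees of freedom), 5 contrasts, and Benjamini-Hochberg adjustment over 9680 genes in each. A gene was called at adjusted p under 0.05. The fit was tested on simulated data. The number of arrays limits the precision.

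Named genes are all 8 members, the called genes of the other family lists (up to 6 by size of change, or the smallest p where none was called), up to 3 signalling genes a comparison, and the 3 genes nearest each tested member by Pearson r. The members and lists were chosen with earlier results of these data known. Alternatives changed the background correction, offset, normalization, detection filter, probe rule, samples, slide, array weights and brightness, and left out each array in turn. Promoters were read from RefSeq (GRCm38.p6).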

Additional observations from a re-analysis of the deposited data

Results flagged for a closer look

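Among 68 sets of 4 arrays, 1 for each probe and group examined, 2 held an array far from the other 3. The probes were those of the members and of some of the other family genes that passed. Chance flags about 1 in 20 such sets. For Cx3cr1 in WT interferon the gap of the lowest array was 0.853 of the range, with log2 levels of 5.48 against 5.87, 5.90 and 5.93. That array is replicate 2, the dimmest of its group and the one on which Cx3cr1 was not detected. For Cxcr5 in the same group the gap of the highest array was 0.972 of the range, with 6.39 against 4.76, 4.78 and 4.80.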

How the results depend on the processing

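No paired analysis was possible because the labels number no replicates, and the numbers used here follow accession order. Of 795 recomputed log2 changes of the members, 696 kept their direction and their side of the threshold, 55 lost a call, 18 gained one, and 24 uncalled values turned sign. Among called values 2 reversed: Ccl9 between the genotypes with vehicle was 0.038 when centred on the median of all probes, and Cx3cr1 with interferon in WT cells was -0.26 when centred on the median of detected probes, a setting added after the values of the former were seen. Centring on all probes moved the median of all genes by 1.07 and 0.56 with interferon in WT and Jak2VF cells, by 0.85 and 0.32 between genotypes with vehicle and interferon, and by -0.44 in the difference. Centring on detected probes moved it by -0.18, -0.09, -0.09, -0.02 and 0.17. In all, 6078 genes were then called higher and 51 lower with interferon in WT cells, against 122 and 98, when centred on all probes, and 84 and 237 when centred on detected probes.

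Members called with interferon in WT cells numbered 1, and 2 when centred on all probes, 0 when centred on detected probes, 0 with no filter, 2 with the mean of the probes, 0 within each slide, 0 with the 2 groups alone, 2 with array weights, 0 with the brightness covariate and 0 without the 3 dimmest arrays. With no background correction, offset 50 and the authors' values it was also 1, but that gene was Ccl4, lower, and Cx3cr1 was not called. For the other family genes that count was 1, and 2 with no background correction and with the authors' values, 5 when centred on all probes, 0 with no filter, 0 within each slide, 0 with the 2 groups alone, 4 with weights, 0 with the covariate and 0 without the dimmest arrays. With interferon in Jak2VF cells 2 members were called, and 1 when centred on all probes and 0 within each slide. The other family genes numbered 4, and 0 when centred on all probes, 1 and 0 within slides 1 and 2, 7 with the 2 groups alone, 8 with weights, 1 with the covariate and 7 without the dimmest arrays.

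Between the genotypes with vehicle 2 members were called, and 0 under either centring, 1 with no filter, 1 with slide as a block, 0 within each slide, 0 with the 2 groups alone, 1 with the covariate and 1 without the dimmest arrays. The other family genes numbered 1, and 0 when centred on all probes, 2 with the slide block, 0 within each slide, 0 with the 2 groups alone and 2 with weights. With interferon 3 members were called, and 5 when centred on detected probes, 1 when centred on all probes, 1 and 0 within slides 1 and 2, and 5 with the 2 groups alone. The other family genes numbered 4, and 7 when centred on detected probes, 0 when centred on all probes, 2 with no filter, 1 and 0 within slides 1 and 2, and 7 without the dimmest arrays. In the difference of the changes 0 were called in both lists under every setting run. Leaving out 1 array gave 0 to 2 members and 0 to 3 other genes with interferon in WT cells, 2 and 1 to 7 in Jak2VF cells, 1 to 2 and 1 to 3 between the genotypes with vehicle, 3 to 5 and 2 to 6 with interferon, and 0 and 0 in the difference. A slide alone has 2 arrays a group, and other causes were not tested. Cx3cr1 in WT vehicle, Ccl6, Ccr1 and Ccr2 were limited by signal over background.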
